A study of Mus musculus with 2 samples.

Results

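DNA methylation in E13.5 primordial germ cells (PGCs) is set by a small group of genes, of which 9 were examined here: the maintenance pair Dnmt1 and Uhrf1, the de novo group Dnmt3a, Dnmt3b and Dnmt3l, the 5-methylcytosine oxidases Tet1, Tet2 and Tet3, and Tdg. The genes were chosen by name, as rows of both expression files that carry the symbol, among 23320 gene symbols found in both files. Of the 9 genes, 8 had a row of their own symbol. Tdg was listed only under a joint name with Gm9855, so its value is given apart.

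The libraries were 1 Control library and 1 Klf9-OE library, with no replicate, so no difference below has a test and every error given is that of estimation within a library. GFP-positive PGCs were sorted from the genital ridges of male and female mouse embryos, offspring of MCH mothers and Oct4-deltaPE-GFP fathers on a C57BL/6J background. They were infected at an MOI of 5 with a control lentivirus or with a CSII-EF lentivirus carrying the Klf9 coding region, and were cultured for 1 day. The cells grew on gelatin-coated plates, and which of the study's control vectors (empty or mCherry) was used for these libraries is not given in the sources used here. The sample labels describe the medium as containing bFGF while the study's own text describes it as lacking bFGF, and both give the same medium to the 2 libraries.

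As background, DNMT1 copies methylation to the new DNA strand at replication, guided by UHRF1, which binds hemimethylated CpG sites. DNMT3A and DNMT3B place methyl groups on unmethylated DNA, and DNMT3L, a catalytically inactive relative, stimulates them in germ cells. TET enzymes oxidise 5-methylcytosine, and TDG excises the further oxidised bases. PGCs lose most of their methylation before and around their arrival in the genital ridge, and in male germ cells Dnmt3a and Dnmt3l later set the new pattern.

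KLF family zinc fingers are known to bind GC and CACCC boxes, and the sequence before start sites is shown for the 3 genes that stayed apart between the libraries when the Klf9-OE intervals were widened. RefSeq start sites on GRCm38, the assembly also called mm10, were matched by symbol for all 9 genes and gave 16 windows of 250 bases before a start. The GC box was searched as GGGCGG or CCGCCC and the CACCC box as CACCC or GGGTG, so that both strands were covered and overlapping matches were counted. A GC box was found in 11 of the 16 windows (68.8%), against 32.7% of 32841 RefSeq windows of the same length, and a CACCC box in 9 (56.2%), against 52.0% of them. The median number of CpG sites was 16 in the windows of these genes and 6 in all windows. A GC box holds a CpG site, and the shares were not matched for CpG content. The 16 windows come from 9 genes and are not independent. Those before Dnmt3a starts 1 and 2 overlap, and a GC box in the overlap is counted in both. Matches are descriptions of sequence, and binding of Klf9 was not measured.

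The windows below are on the forward strand of mm10, printed 5′ to 3′ with GC and CACCC boxes in capitals, and each lies outside annotated GENCODE exons. The Dnmt3l windows end before start 2 (chr10:78049592-78049841) and before start 3 (chr10:78055085-78055334). The Uhrf1 window ends before start 2 (chr17:56304063-56304312) and the Dnmt3a window before start 1 (chr12:3806730-3806979).
Dnmt3l start 2: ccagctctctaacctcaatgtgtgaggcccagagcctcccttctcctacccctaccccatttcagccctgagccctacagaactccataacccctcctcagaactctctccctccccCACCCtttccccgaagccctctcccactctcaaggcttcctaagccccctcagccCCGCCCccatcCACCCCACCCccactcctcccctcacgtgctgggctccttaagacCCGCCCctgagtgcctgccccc
Dnmt3l start 3: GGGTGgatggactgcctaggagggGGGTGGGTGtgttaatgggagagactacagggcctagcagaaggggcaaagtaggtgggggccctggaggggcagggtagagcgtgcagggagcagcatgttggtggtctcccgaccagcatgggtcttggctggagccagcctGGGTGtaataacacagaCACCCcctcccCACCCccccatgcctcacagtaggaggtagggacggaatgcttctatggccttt
Uhrf1 start 2: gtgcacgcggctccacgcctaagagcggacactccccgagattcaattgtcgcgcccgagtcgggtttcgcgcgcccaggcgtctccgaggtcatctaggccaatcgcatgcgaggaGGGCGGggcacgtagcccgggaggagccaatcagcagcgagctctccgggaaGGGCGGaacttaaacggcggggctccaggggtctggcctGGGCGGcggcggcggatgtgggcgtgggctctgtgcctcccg
Dnmt3a start 1: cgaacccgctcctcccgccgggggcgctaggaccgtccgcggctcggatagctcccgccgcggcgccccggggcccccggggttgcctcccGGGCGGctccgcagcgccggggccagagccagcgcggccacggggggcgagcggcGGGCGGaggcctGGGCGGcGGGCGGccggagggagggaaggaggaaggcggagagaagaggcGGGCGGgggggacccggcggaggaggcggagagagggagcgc
The Dnmt3l windows were poor in CpG, with 4 and 3 sites, and the window before start 1, which overlaps an exon of Aire, held 5 and neither box. The Uhrf1 window held 30 CpG sites and 3 GC boxes, and the Dnmt3a window held 38 CpG sites and 5 GC boxes. The Dnmt3l window before start 2 held 2 GC boxes and 3 CACCC boxes, and that before start 3 held 6 CACCC boxes and no GC box. The other windows of Uhrf1 and Dnmt3a overlap exons, also held boxes and are not printed. Across all windows 8 of the 9 genes had a GC box and 7 a CACCC box. Dnmt1, Dnmt3b and Tet3, whose intervals overlapped between the libraries, had both, so the boxes were not particular to the 3 genes shown.

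**Figure D1:**
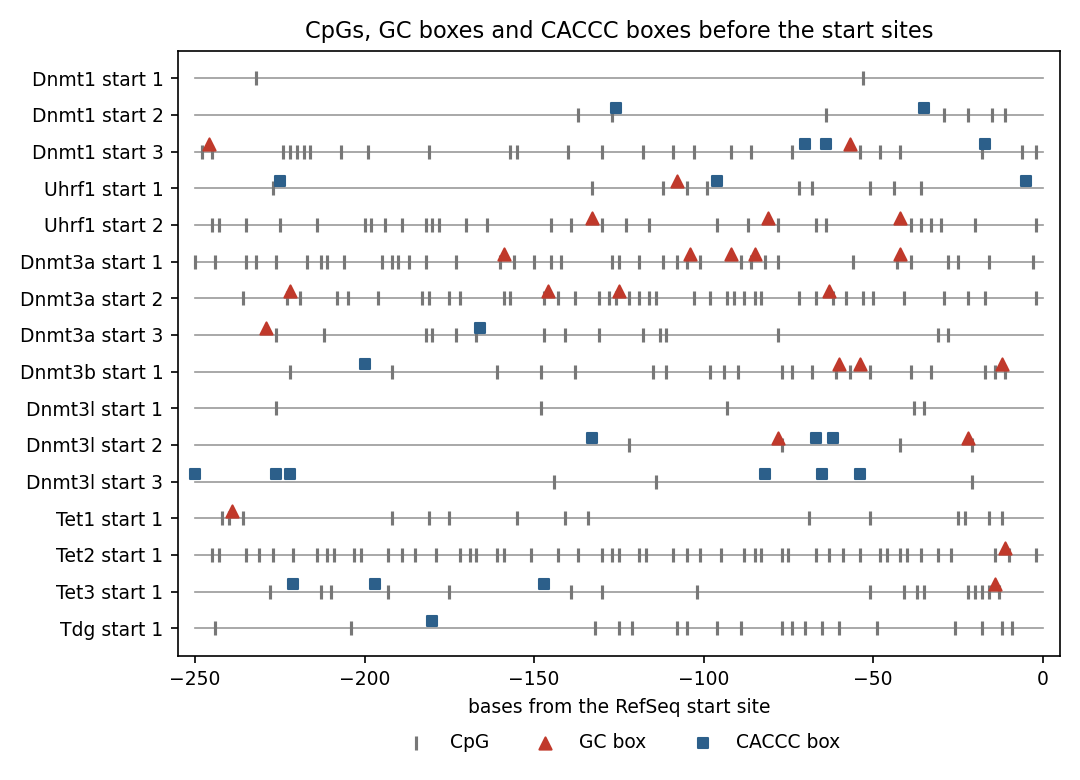
CpG sites (grey ticks), GC boxes (red triangles) and CACCC boxes (blue squares) in the 250 bases before each of the 16 RefSeq start sites, with the distance from the start in bases on the horizontal axis. The 3 windows of Dnmt3l hold 3 to 5 CpG sites, whereas the first Dnmt3a window holds 38 and the Tet2 window 51.

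Levels are given as FPKM, the number of fragments scaled to transcript length and to the mapped reads of the library, which for these single-end reads equals RPKM. Each carries the 95% interval that Cufflinks deposited. The log2 fold change is that of FPKM + 0.1 in the Klf9-OE library over FPKM + 0.1 in the Control library, and its interval combines the 2 deposited intervals. Klf9 itself was at 2.27 FPKM in the Control library and 80.8 in the Klf9-OE library. All 8 genes were above 1 FPKM in both libraries, and the half-width of their intervals ran from 3.10% of the level for Dnmt1 in Klf9-OE to 9.82% for Tet2 in Control. An implied number of reads can be read from the interval of genes with few reads, and among genes with 1 to 9 implied reads it was even for 88.4% of 1793 genes in the Klf9-OE library and 36.3% of 2157 in the Control library. The Klf9-OE intervals may therefore be too narrow, and interval counts are also given with their half-widths multiplied by the square root of 2 where that changes them.

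Dnmt3l was at 80.9 FPKM in the Control library (77.2 to 84.7) and at 38.1 in the Klf9-OE library (36.0 to 40.2), a 2.12-fold lower level. The intervals were far apart, and Dnmt3l was the only gene of the 8 past 2-fold in either direction. Its log2 fold change was -1.08 (-1.19 to -0.98), and with the wider Klf9-OE interval the bounds were -1.22 to -0.95. Among 12565 genes with at least 1 FPKM in at least 1 library, 373 had a lower log2 fold change. Of those 12565 genes, 3.79% were at least 2-fold lower and 3.93% at least 2-fold higher, and of all 18742 genes above 0 these shares were 9.43% and 9.82%. A count of 1 in 8 genes is too small to be set apart from these shares. The next largest ratio in the same direction was that of Dnmt3a, 1.21-fold lower.

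GENCODE M21 annotates Dnmt3l on the forward strand of chromosome 10, between positions 78041947 and 78063622. Both files give it a single locus with 4 transcript starts and 1 value, so its isoforms are not separated. The library kit did not keep strand, and Aire, on the opposite strand, shares 67 of the 2988 exon bases of Dnmt3l (2.24%). Aire was listed at 0.0693 FPKM in Control and 0.123 in Klf9-OE, levels far under that of Dnmt3l. The study lists RT-qPCR primers for Dnmt3l, Dnmt3b, Tet2 and Uhrf1. Its RT-qPCR of candidate genes compared embryonic stem cells with PGCs, and its text describes no RT-qPCR of Dnmt3l or Uhrf1 under Klf9-OE. From RNA-seq of Klf9-OE and control PGCs the study also lists genes past 2-fold, and those lists are not compared here. The primers of the genes that differed most in each direction show which part of the transcript they report on.
Dnmt3l forward: ctgctgactgaggatgacca
Dnmt3l reverse: acccgcatagcattctggta
Uhrf1 forward: aagctggagccgtacacact
Uhrf1 reverse: cctctttcaccttgctcagg
The Dnmt3l pair matched 6 of 8 GENCODE transcripts and spans 104 bases of coding sequence from exon 12 to exon 13 of 14 (chromosome 10, 78057363 to 78059705). The Uhrf1 pair matched 5 of 7 transcripts and spans 139 coding bases from exon 15 to exon 16 of 17 (chromosome 17, 56320435 to 56322051).

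Dnmt3a and Dnmt3b, the catalytic de novo methyltransferases, differed less. Dnmt3a was at 27.1 FPKM in Control (26.1 to 28.1) and 22.3 in Klf9-OE (21.6 to 23.1), a log2 fold change of -0.28 (-0.35 to -0.20), with intervals that did not overlap. Dnmt3b was at 5.99 FPKM (5.49 to 6.50) and 6.15 (5.66 to 6.64), a log2 fold change of 0.04 (-0.13 to 0.20), and its intervals overlapped almost entirely. Dnmt3a lies on chromosome 12 from 3806007 to 3914443 and Dnmt3b on chromosome 2 from 153649450 to 153687730. The listed locus of Dnmt3b ended at 153687730 in Control but at 153730395 in Klf9-OE. Dnmt3aos, which lies antisense to Dnmt3a and shares 133 of its exon bases, was listed at 0 in Control and at 0.0504 FPKM in Klf9-OE.

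The balance within the de novo group was therefore different in the 2 libraries. In Control there were 2.99 Dnmt3l transcripts per Dnmt3a transcript by FPKM (2.81 to 3.16), and in Klf9-OE 1.71 (1.59 to 1.82). The summed level of the 3 genes was 114 FPKM in Control and 66.6 in Klf9-OE, while the sum of the catalytic pair was 33.1 and 28.5. Dnmt3l alone was lower by 42.8 FPKM.

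Uhrf1, the hemimethylated-CpG reader, stood higher in the Klf9-OE library. Its level was 36.9 FPKM in Control (35.1 to 38.6) and 47.9 in Klf9-OE (45.9 to 49.8), a ratio of 1.30 and a log2 fold change of 0.38 (0.28 to 0.47). The intervals did not overlap, also with the wider Klf9-OE interval, and 1486 of the 12565 genes had a higher log2 fold change. Dnmt1, its partner enzyme, was at 101.3 FPKM (97.8 to 104.7) and 98.1 (95.1 to 101.1), a log2 fold change of -0.05 (-0.11 to 0.02) whose sign turned to 0.02 when the libraries were rescaled to the same sum. The level of Uhrf1 relative to Dnmt1 was 0.364 in Control (0.342 to 0.385) and 0.488 in Klf9-OE (0.463 to 0.513). Uhrf1 lies on chromosome 17 from 56303321 to 56323486, and Dnmt1 on chromosome 9 from 20907209 to 20959888. The locus of Dnmt1 reached from 20907206 in the Control file but from 20892135 in the Klf9-OE file.

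Among the TET oxidases, Tet1 was the most abundant, with 66.8% of the summed Tet FPKM in Control and 68.4% in Klf9-OE. Tet1 was at 10.7 FPKM in Control (10.2 to 11.1) and 11.6 in Klf9-OE (11.2 to 12.1), a log2 fold change of 0.13 (0.04 to 0.21). Its deposited intervals were narrowly apart, and they overlapped once the Klf9-OE interval was widened. Its listed locus was also longer in Klf9-OE, from 62800740 to 62892845 of chromosome 10, than in Control, from 62804570 to 62887481.

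Tet2 was at 1.87 FPKM in Control (1.69 to 2.06) and 2.16 in Klf9-OE (1.97 to 2.36), a log2 fold change of 0.20 (0.01 to 0.39). Tet3 was at 3.42 FPKM (3.21 to 3.64) and 3.21 (3.03 to 3.40), a log2 fold change of -0.09 (-0.21 to 0.04). The intervals of both genes overlapped between the libraries. Tet2 lies on chromosome 3 from 133463679 to 133545139 and Tet3 on chromosome 6 from 83362373 to 83459084. The joint row of Gm9855 and Tdg, the glycosylase that acts after the TET enzymes, was at 14.8 FPKM (13.8 to 15.8) and 15.8 (14.8 to 16.7), with overlapping intervals. Its locus is that of Tdg on chromosome 10 (82629838 to 82650494), while GENCODE places Gm9855, a processed pseudogene, from 42054113 to 42055306 of the same chromosome, so reads that match both cannot be assigned. Glt8d2, on the opposite strand, shares 367 of the 5374 exon bases of Tdg. No level is given for Glt8d2, which either lacked a row of its own symbol or was listed without expression.

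**Figure D2:**
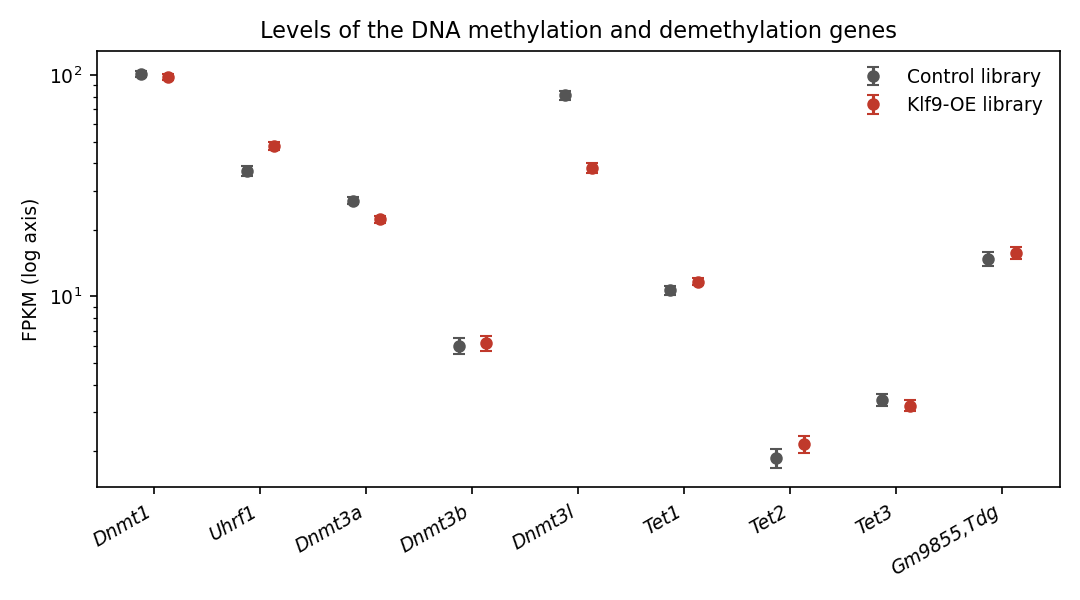
FPKM of the 8 genes and of the joint Gm9855 and Tdg row in the Control library (grey) and the Klf9-OE library (red) on a log axis, with bars for the deposited 95% Cufflinks intervals. Dnmt3l is at 80.9 in Control and 38.1 in Klf9-OE, Uhrf1 is at 36.9 and 47.9, and the intervals of Dnmt1, Dnmt3b, Tet2, Tet3 and the joint row overlap.

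In the Control library the order of levels was Dnmt1, Dnmt3l, Uhrf1, Dnmt3a, Tet1, Dnmt3b, Tet3 and Tet2, and no neighbours in this order had overlapping intervals. In the Klf9-OE library the order was the same except that Uhrf1 stood above Dnmt3l, again with no overlap between neighbours. Dnmt1 exceeded 95.4% of the genes above 0 in each library. Dnmt3l exceeded 94.0% of them in Control and 86.3% in Klf9-OE, and Uhrf1 85.6% and 89.4%. Tet2 was at 39.3% in Control and 40.3% in Klf9-OE.

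Taking the 8 genes as a group, 4 had a higher and 4 a lower value in Klf9-OE, with a median log2 fold change of -0.005 against -0.015 over all 18742 genes. The sign of the group median turned under both rescalings (0.0013 and 0.056). Deposited intervals did not overlap for 4 of the 8, Uhrf1 and Tet1 higher and Dnmt3a and Dnmt3l lower. Of 18626 genes with a single row, 11.2% were higher and 14.4% lower without overlap, and of those with at least 1 FPKM in a library 14.8% and 20.2%, so that 4 of 8 was not far from the background. With the wider Klf9-OE intervals 3 of the 8 stayed apart, Uhrf1 higher and Dnmt3a and Dnmt3l lower, against 8.48% higher and 12.0% lower of all genes. Those shares include genes under 1 FPKM, and the wider intervals were not counted for genes with at least 1 FPKM alone. The 3 of 8 is therefore not set beside genes of like level. The middle 50% of the 12565 genes had a log2 fold change between -0.21 and 0.14, which contains the values of Dnmt1, Dnmt3b, Tet1 and Tet3 but not those of Dnmt3l, Dnmt3a, Uhrf1 and Tet2.

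**Figure D3:**
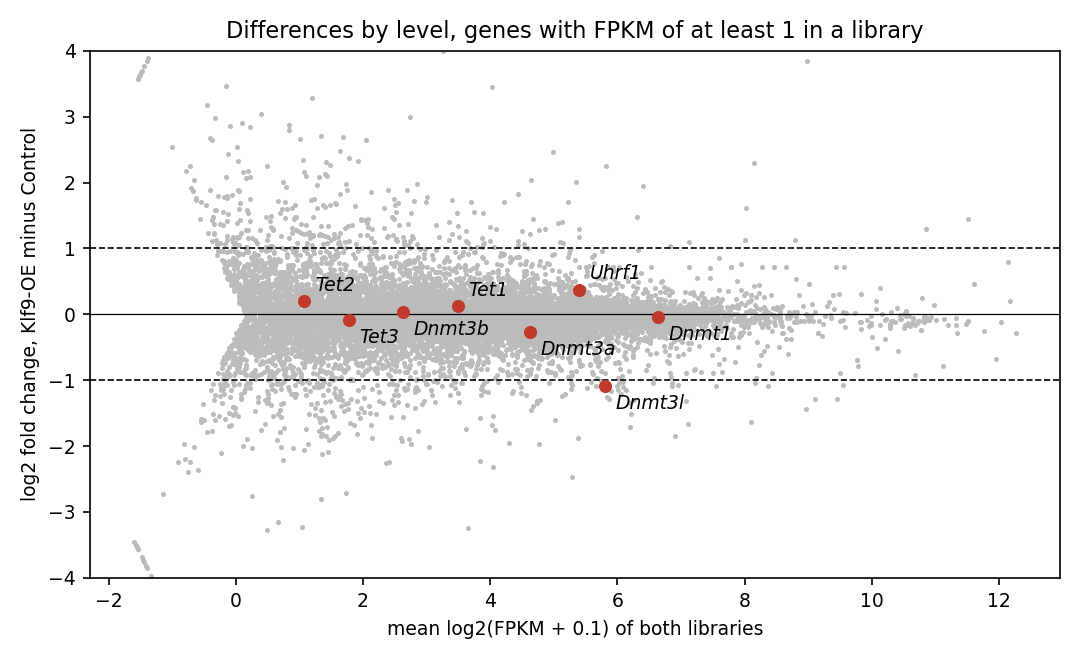
Log2 fold change against the mean log2(FPKM + 0.1) of both libraries for genes with at least 1 FPKM in a library (grey), with the 8 genes in red and dashed lines at 2-fold; 261 genes beyond the plotted range of 4 on the log2 scale are not drawn. Dnmt3l is the only red point beyond a dashed line, and Uhrf1 and Dnmt3a lie on opposite sides of 0.

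The partners of maintenance methylation were highly expressed and mostly close between the libraries. Of 9 genes, 2 were higher and 2 lower with intervals apart, near the shares of 14.8% and 20.2% among genes with at least 1 FPKM, and the median log2 fold change was 0.06. Dppa3, which encodes a protein that restrains UHRF1 and protects methylation in the zygote, had the highest Control level of the list, 294 FPKM (279 to 309), and was at 179 (169 to 188) in Klf9-OE, a log2 fold change of -0.72. Uhrf2, a paralog of Uhrf1, was at 21.2 FPKM (19.9 to 22.5) and 27.7 (26.3 to 29.0), the same log2 fold change of 0.38 as Uhrf1. Usp7, a deubiquitinase that binds DNMT1 and UHRF1, was at 62.5 FPKM (56.8 to 68.1) and 54.7 (52.5 to 56.8) with overlapping intervals.

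Of 18 genes of base excision repair and cytosine deamination, 16 had a row of their own in both files, 1 was higher and 5 lower with intervals apart, against the same 14.8% and 20.2%. With the wider Klf9-OE intervals 1 was higher and 2 were lower, against 8.48% and 12.0% of all genes, since Smug1, Xrcc1 and Lig3 then overlapped. The median log2 fold change was -0.05, or 0.01 with the libraries rescaled to the same sum. Parp1 and Polb were listed under joint names in at least 1 file. Apobec1, a cytidine deaminase of RNA and DNA, was at 4.98 FPKM in Control (3.81 to 6.14) and 1.31 in Klf9-OE (1.02 to 1.60), a log2 fold change of -1.85. Neil1, a DNA glycosylase that removes oxidised bases, was at 4.88 FPKM (3.65 to 6.10) and 1.60 (1.16 to 2.05), a log2 fold change of -1.55. These were the 2 genes of the list past 2-fold, both lower. At least 2-fold lower were 3.79% of genes with at least 1 FPKM and 9.43% of all genes. Mbd4, a glycosylase for G:T mismatches at CpG sites, stood higher, at 7.71 FPKM (7.05 to 8.37) and 10.5 (9.68 to 11.3). Xrcc1, a scaffold of the repair complex, had the highest Control level of the list, 87.9 FPKM (83.5 to 92.4), and was at 78.1 (74.2 to 82.0) in Klf9-OE.

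All 8 methyl-CpG readers and imprint-protecting factors with a row of their own had a lower value in Klf9-OE (6 of 8 when the libraries were rescaled to the same sum), their median log2 fold change was -0.27, and the intervals were apart for 2 of them, Mbd1 and Mbd2, against 20.2% of genes with at least 1 FPKM. Mbd1 was at 25.5 FPKM (24 to 27.1) and 19.9 (18.2 to 21.7). Zfp57, which guards methylation at imprinted regions, was at 3.51 FPKM (2.92 to 4.09) and 2.76 (2.30 to 3.22), and its corepressor Trim28 at 282 (272 to 291) and 199. The deposited interval of Trim28 in Klf9-OE ran from 0 to 11472, so that value is not resolved.

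TET cofactors and partners had a median log2 fold change of 0.04, with 1 of 8 genes higher and 2 lower with intervals apart, near the 14.8% and 20.2% of genes with at least 1 FPKM. Fam60a, counted among the 5 that overlap, had a Control interval from 0 to 426.5 and is not resolved. Idh1, which makes the 2-oxoglutarate that TET enzymes use, was at 53.0 FPKM (50.5 to 55.5) and 43.1 (41.2 to 45.0). Cxxc5 was at 16.9 FPKM (15.6 to 18.2) and 13.9 (12.8 to 15.0), and Cxxc4 at 0.724 (0.535 to 0.914) and 1.19 (0.722 to 1.66), with overlapping intervals for Cxxc4 only. Both encode CXXC zinc finger proteins, and CXXC4 is known to bind TET2. Hmces, a sensor of abasic sites, had the highest Control level of the list, 54.6 FPKM (51.2 to 58.0), and was at 49.2 (46.5 to 51.9) in Klf9-OE.

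In the cycle that supplies S-adenosylmethionine, the methyl donor, none of 13 genes was higher and 4 were lower with intervals apart, against 14.8% and 20.2% of genes with at least 1 FPKM, and the median log2 fold change was -0.09. Past 2-fold were Gnmt, with a higher value, and Nnmt, with a lower one, against 9.82% and 9.43% of all genes. Nnmt is 1 of the 4 lower with intervals apart. Both were under 1 FPKM in both libraries, and Nnmt was listed in Klf9-OE at 0 with an interval from 0 to 0. Mat2a, the catalytic subunit of the S-adenosylmethionine synthetase of most cells, was at 85.1 FPKM (81.2 to 89.0) and 89.1 (84.9 to 93.3) with overlapping intervals, and its regulatory subunit Mat2b at 67.1 (63.7 to 70.5) and 53.1 (50.5 to 55.7) with intervals apart. Shmt1, a serine hydroxymethyltransferase of the folate cycle, was at 75.2 FPKM (71.8 to 78.6) and 61.6 (58.7 to 64.6). Mat1a, the liver form of the synthetase, was at 1.93 FPKM (0.981 to 2.87) and 1.56 (1.32 to 1.80).

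Germline genes whose promoters are methylated in somatic cells, and which PGCs express once these promoters are demethylated, were all expressed at 35.2 FPKM or more in both libraries. Of 16 genes, 3 were higher and 5 lower with intervals apart, near the 14.8% and 20.2% of genes with at least 1 FPKM. With the wider Klf9-OE intervals 2 were higher and 4 lower, against 8.48% and 12.0% of all genes, since Dazl and Rpl10l then overlapped. None was past 2-fold, and the median log2 fold change was -0.02, or 0.04 with the same sum. Sycp3, a component of the synaptonemal complex, had the highest Control level, 541 FPKM (517 to 566), and was at 557 (532 to 581) in Klf9-OE. Brdt, a testis bromodomain protein, was at 46.2 FPKM (44.2 to 48.3) and 35.2 (33.6 to 36.9), Piwil2, a piRNA-binding protein, at 157 (150 to 163) and 128 (123 to 133), and Tex11, a meiotic protein, at 60.6 (57.5 to 63.6) and 73.9 (70.4 to 77.4). DNA methylation itself was not measured in these libraries.

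**Figure D4:**
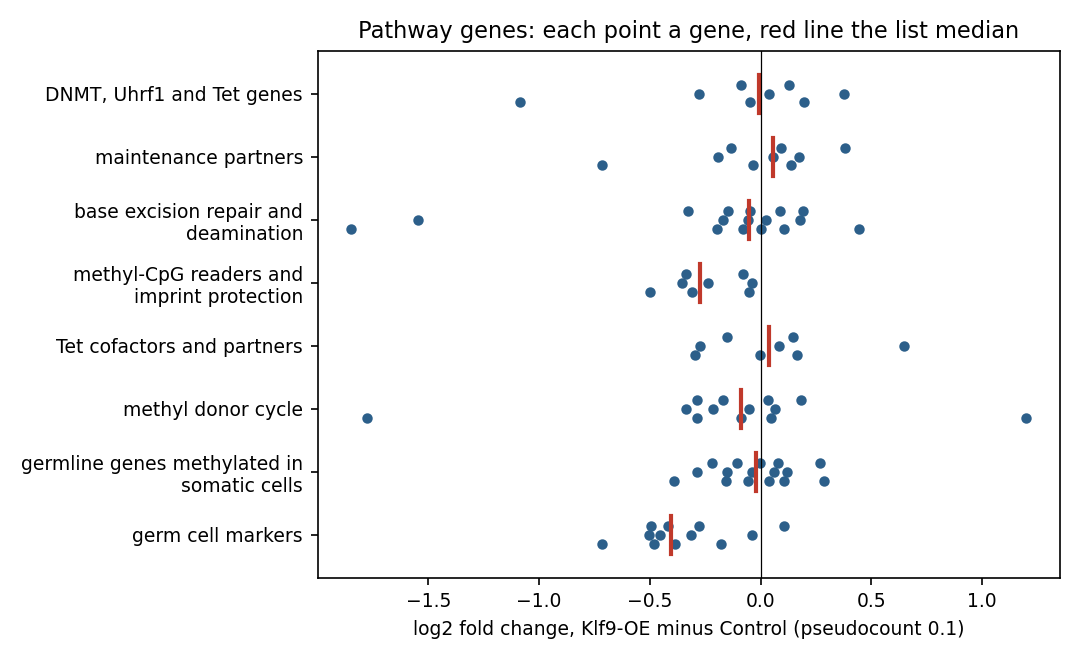
Log2 fold change of each gene (points) in the DNMT, Uhrf1 and Tet group, in 6 related gene lists and in the germ cell markers, with the list median as a red line. The medians lie between -0.404 for the germ cell markers and 0.058 for the maintenance partners. The point of Dnmt3l at -1.08 lies lower than all points of the germline and germ cell lists. Apobec1 at -1.85, Nnmt at -1.77 and Neil1 at -1.55, in the repair and methyl donor lists, lie lower still.

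The labelled cell type was checked by markers, since levels in bulk RNA cannot tell fewer cells of a type from less RNA per cell. All 12 germ cell markers were above 4 FPKM in both libraries, and their summed level was 1710 FPKM in Control and 1418 in Klf9-OE. Of the 12, 10 were lower and 1, Dazl, was higher with intervals apart, against 20.2% and 14.8% of genes with at least 1 FPKM, and Dazl overlapped with the wider Klf9-OE interval. They had a median log2 fold change of -0.40. The lowest was that of Dppa3 at -0.72, and that of Dnmt3l was -1.08. The part of the number of germ cells in the Dnmt3l difference was not tested. Pou5f1, the pluripotency factor of PGCs, was at 387 FPKM (375 to 399) and 277 (267 to 287), Dppa5a at 135 (128 to 142) and 95.3 (89.2 to 101.5), and Nanos3, an RNA-binding protein needed for PGC survival, at 24.6 (21.9 to 27.4) and 17.5 (15.5 to 19.5).

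Markers of other cells stood at low levels but were not absent. The summed FPKM of 10 gonad somatic markers was 25.1 in Control and 32.9 in Klf9-OE, that of 6 endothelial markers 3.53 and 6.53, and that of 5 mesenchyme markers 17.4 and 25.5. Among the gonad somatic markers 4 were higher and 1 lower with intervals apart, against 11.2% and 14.4% of all genes. With the wider Klf9-OE intervals 3 were higher and 1 lower, against 8.48% and 12.0% of all genes, since Gata4 (6.21 and 7.47 FPKM) then overlapped. Star was listed at 0 in Control and at 2.39 FPKM in Klf9-OE. Wt1 was at 3.41 FPKM (2.99 to 3.83) and 5.64 (5.0 to 6.27), and Sox9 at 2.04 (1.76 to 2.31) and 1.09 (0.906 to 1.27). The 6 endothelial markers did not share a direction, with 3 higher and 3 lower values. Cdh5, an endothelial cadherin, was at 2.0 FPKM (1.66 to 2.33) and 5.09 (4.57 to 5.60). Tek was at 0.735 FPKM (0.574 to 0.896) and 0.439 (0.327 to 0.550), and overlapped with the wider Klf9-OE interval. With deposited intervals apart, 1 of the 6 was higher and 1 lower, against 11.2% and 14.4% of all genes. The collagen gene Col1a1 was at 9.09 and 12.5. The mesenchyme markers Col3a1, at 5.26 and 8.08, Col1a2, at 1.03 and 1.68, and Pdgfrb, at 1.06 and 1.89, were also higher with intervals apart. With Col1a1 these were 4 of the 5, against 14.8% of genes with at least 1 FPKM. The macrophage and blood markers did not share a direction, with Csf1r at 0.307 FPKM and 1.18, Lyz2 at 1.001 and 0, Adgre1 at 0.0836 and 0.0196, and Ptprc at 0.0584 and 0.0239. Emcn and Lyz2 were listed at 0 in Klf9-OE. The part of these cells in the differences of Dnmt3l, Uhrf1 and Dnmt3a was not tested.

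The cells came from embryos of both sexes, whose shares in these libraries are not given in the sources used here, and genes that differ between the sexes were therefore read beside Dnmt3l, which male germ cells are known to express in the fetal period. Xist, expressed from an inactive X chromosome, was at 0.829 FPKM in Control (0.739 to 0.920) and 2.05 in Klf9-OE (1.91 to 2.20). These bulk levels do not tell whether Xist came from germ cells or from the other cells whose markers were detected. Of the 4 Y-linked genes, Eif2s3y was lower with intervals apart, at 59.0 FPKM (55.6 to 62.4) and 49.3 (46.5 to 52.2), and those of Ddx3y, Kdm5d and Uty overlapped. Nanos2, a determinant of male germ cells, was at 4.85 FPKM and 4.68 with overlapping intervals, Piwil4, a piRNA pathway gene of fetal male germ cells, at 45.1 (42.9 to 47.2) and 33.5 (31.9 to 35.1), and Stra8, which induces meiosis in female germ cells, at 120 (114 to 125) and 79.4 (75.7 to 83.0). Rec8, a meiotic cohesin, was at 37.0 FPKM (34.7 to 39.3) and 30.04 (28.6 to 31.4). With intervals apart, 3 of these 4 germ cell genes and 1 of the 4 Y-linked genes were lower. Among genes with at least 1 FPKM that share was 20.2%. The part of the mix of sexes in the Dnmt3l difference was not tested.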

How the data were processed

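RNA-seq libraries of 1 Control and 1 Klf9-OE PGC culture were analysed. Per the labels and the methods of the study, the authors prepared them with the TruSeq RNA kit v2, aligned single-end reads to mm10 and RefSeq genes by TopHat2 and Bowtie, and estimated with Cufflinks the deposited FPKM values and their 95% intervals. The submitters' processing notes also name Cuffdiff. Versions are not given in the sources used here. The files hold no read totals, so the depth is unknown and the deposited intervals are the precision.

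The FPKM of rows with the same symbol were summed. Genes past 2-fold in either direction, and genes whose intervals did not overlap, were counted beside the same over all genes, with no test, since each group had 1 library. Interval counts over all genes used symbols with a single row and an OK status in each file. The pseudocount of 0.1 makes differences of low genes look smaller. Rows naming several genes (714 in Control, 663 in Klf9-OE) were not split. File coordinates were written 1-based. The genes and lists were chosen with earlier results of these data known. From each pathway list, up to 3 genes with the largest absolute log2 fold change among those with at least 1 FPKM in a library and the gene with the highest Control FPKM were named, with markers at 0 and sex-linked genes. Other genes named were chosen after their values were seen. The calculations were tested on simulated data and used Python 3.11.15, numpy 2.4.6, pandas 2.3.3 and matplotlib 3.10.9. Start-site sequences are from RefSeq (GRCm38.p6) and transcripts from GENCODE M21. The summed level and median of the macrophage and blood markers are not reported here.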

Additional observations from a re-analysis of the deposited data

How the results depend on the processing

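Values were recomputed with pseudocounts of 0.01 and 1, with a minimum of 1 FPKM in at least 1 library, with the libraries rescaled to the same upper quartile (a log2 shift of 0.0063) or the same sum (0.062), with the highest row of a symbol, and with wider Klf9-OE intervals. Of 126 recomputed values, 125 moved by less than the median interval half-width of their genes, which is wide for low markers, or by less than 1.5 times for a count, and the exception was the median of the endothelial markers, which was 1.31 with the minimum of 1 FPKM, where a single gene, Cdh5, was left. The value 1.31 compares with 0.12 over all 6 endothelial markers. Part of the 126 could not move, so their number overstates how far the results were tried. All 8 genes passed the minimum of 1 FPKM and had the same value with the highest row. The minimum likewise left the medians of lists whose genes all passed it as they were. With a pseudocount of 1 the median of the gonad markers was 0.09 in place of 0.20 and that of the endothelial markers 0.04 in place of 0.12. With the same sum the median was 0.12 for the maintenance partners, 0.10 for the Tet cofactors and -0.03 for the methyl donor cycle, in place of 0.06, 0.04 and -0.09. Dnmt3l stayed past 2-fold in each setting, with a log2 fold change from -1.09 to -1.02. The number of genes with intervals apart was 4 under both rescalings and 3 with the wider intervals, where Tet1 was lost. The log2 fold change of Dnmt1, -0.05 as deposited, was 0.02 with the same sum. Rescaling to the same sum also turned the sign of the medians of the repair genes (0.01) and the germline genes (0.04), and rescaling by either measure that of the 8 genes. No replicate could be left out with 1 library in each group. No paired analysis was possible because each group has 1 library.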
